A study of Mus musculus with 119 samples.

Results

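The copine family was described through its 9 listed genes, Cpne1 to Cpne9, which were found by symbol among the 55291 symbols of the count tables, and no other symbol began with Cpne. They were followed in 119 RNA-seq libraries of female and male mice, from punches of the amygdala (Amy), the nucleus accumbens (NAc) and the prefrontal cortex (PFC), and also of the ventral tegmental area (VTA) of the midbrain and the dorsal medial striatum (DMS). The family was selected on its member Cpne9, which was chosen by its measured values, as these differed between THC and vehicle in the female DMS and the female Amy, so for those 2 comparisons the members are described by levels and differences with no test.

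Mice received vehicle or 10 mg/kg of THC (delta-9-tetrahydrocannabinol, the main psychoactive compound of cannabis) as 1 intraperitoneal injection a day from postnatal day 28 to 48, which made 21 injections, and behavioral testing began at postnatal day 63. Each region, sex and treatment had 6 libraries, except for 5 from the VTA of vehicle males, and each library came from 1 region of 1 mouse. The labels gave the strain as C57BL/6J, the age as 11 weeks and the striatal tissue as dorsolateral striatum, whereas the methods of the study named C57BL/6NCrl mice and the DMS, and the name DMS is kept. No allele or transgene was involved, and the labels do not tie libraries of different regions to a mouse.

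Depth ran from 3090978 to 77042124 expected counts a library, with a median of 22092580. Levels are counts scaled to a common library total (CPM) after TMM normalisation. Region markers followed the dissections: mean CPM of Slc17a7, the vesicular glutamate transporter of cortical projection neurons, was 1907 in the vehicle PFC, that of Ppp1r1b (DARPP-32 of striatal neurons) was 3002 in the DMS and 1106 in the NAc, and that of Slc6a3 (the dopamine transporter) was 1298 in the VTA. In 2 libraries, FTL_344 of the female Amy THC group and FTL_356 of the male Amy THC group, the X- and Y-linked sex genes went against the labelled sex. Amy values without them are given for Cpne9, for Cpne6 in females and for the members called by sex and in the response by sex.

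Copines are soluble proteins with a pair of C2 domains, which bind phospholipid membranes when intracellular Ca2+ rises, followed by an A domain that binds partner proteins. Synaptotagmins, Doc2 proteins, rabphilin and synaptotagmin-like proteins carry tandem C2 domains as well and act in vesicle release. Copine 6 is the best-studied member in forebrain neurons, where it is drawn to the membrane of dendritic spines by Ca2+ and works with the GTPase Rac1 and the BDNF receptor TrkB. Copine 1 is found in most tissues and binds 14-3-3 gamma, and copine 3 binds the receptor ErbB2 and the scaffold Rack1.

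In the GENCODE M21 annotation of GRCm38 the genes lie on 8 chromosomes, Cpne2 and Cpne7 both on chromosome 8. Exons of Cpne1 (chr2:156071842-156111965, minus strand) overlap those of Rbm12 and Gm28036 on the same strand, and 99.16% of its values were not whole numbers, against 0% for every other member. The counts of Cpne1 are therefore uncertain, since the counting divided reads among these genes. Cpne9 (chr6:113282307-113305627, plus strand) has the antisense gene Gm43935 over it, whose mean level was 0.08 to 0.16 CPM by region in these strand-specific libraries.

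RefSeq promoter sequences of build GRCm38.p6 were matched for 6 members, and Cpne3, Cpne6 and Cpne7 were not among them. The 250 bases upstream of the start are shown for Cpne2, Cpne5 and Cpne9, since these 3 genes had their highest vehicle levels in 3 different regions, the Amy, the DMS and the PFC. They lie at chr8:94532778-94533027 (plus strand), chr17:29237791-29238040 (minus strand) and chr6:113282057-113282306 (plus strand). Capitals mark GGGCGG on either strand, the core of the GC box.
Cpne2 promoter: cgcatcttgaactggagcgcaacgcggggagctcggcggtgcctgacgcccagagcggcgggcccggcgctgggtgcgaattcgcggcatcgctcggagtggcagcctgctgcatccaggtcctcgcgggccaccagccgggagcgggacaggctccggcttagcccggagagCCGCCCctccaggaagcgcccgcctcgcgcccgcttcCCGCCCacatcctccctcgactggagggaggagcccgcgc
Cpne5 promoter: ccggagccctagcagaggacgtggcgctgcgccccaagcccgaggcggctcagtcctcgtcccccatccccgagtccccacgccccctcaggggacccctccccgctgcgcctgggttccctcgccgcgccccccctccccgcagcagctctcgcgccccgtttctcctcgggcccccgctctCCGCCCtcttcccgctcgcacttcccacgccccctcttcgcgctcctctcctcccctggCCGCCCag
Cpne9 promoter: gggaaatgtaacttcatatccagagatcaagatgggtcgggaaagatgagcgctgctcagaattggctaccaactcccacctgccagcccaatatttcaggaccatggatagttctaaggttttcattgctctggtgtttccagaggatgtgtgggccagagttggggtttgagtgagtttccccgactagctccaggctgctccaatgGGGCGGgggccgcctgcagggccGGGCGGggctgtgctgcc

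All 3 hold 2 matches to GGGCGG, a motif present in 32.7% of the 32851 RefSeq promoters of the same length. Their base composition differed. The Cpne2 promoter has 74.4% G and C with 32 CpG dinucleotides and that of Cpne5 76.4% with 27, whereas that of Cpne9 has 56.4% with 7, where the median over all promoters is 52.4% with 6. The Cpne8 promoter (74.4%, 28 CpG) resembled the first pair in composition, and those of Cpne1 (54.0%, 11 CpG) and Cpne4 (59.6% with 13 CpG and 56.8% with 1 CpG for 2 listed starts) resembled that of Cpne9. None of the 7 member promoters held TATAAA (12.4% of all promoters) or TGACGTCA, the cyclic AMP response element (1.55%), and neither search says anything about the factors that bind such letters.

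The first question was where in the brain each copine is expressed, which was addressed in the 59 vehicle libraries (n = 12 a region, 11 for the VTA). Cpne1 and Cpne3 were nearly even across regions, whereas Cpne9, Cpne7 and Cpne5 differed by an order of magnitude or more between their highest and lowest regions. The ratio of the highest to the lowest region mean was 24.84 for Cpne9, 18.68 for Cpne7, 12.95 for Cpne5, 7.633 for Cpne2, 4.288 for Cpne4, 4.28 for Cpne6, 3.002 for Cpne8, 1.401 for Cpne3 and 1.171 for Cpne1. In bulk tissue, fewer cells of a type and less RNA per cell cannot be told apart.

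**Figure D1:**
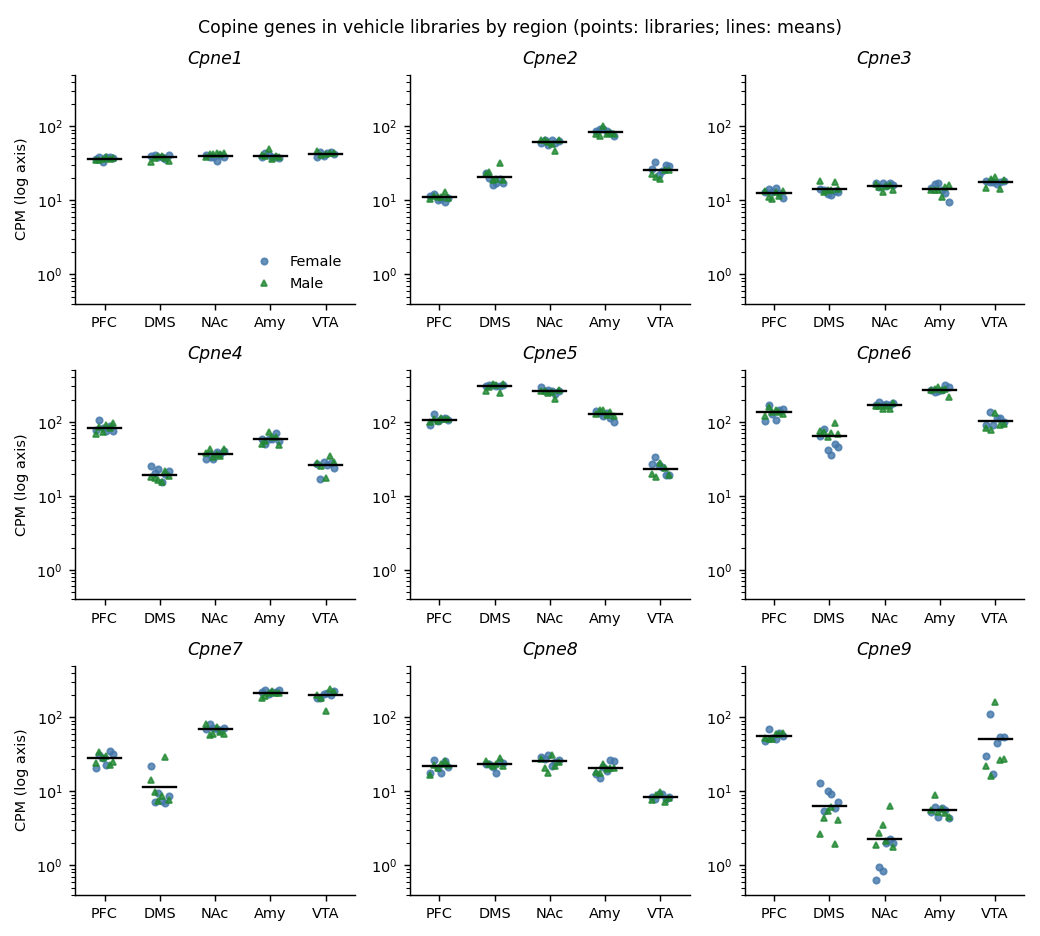
TMM-normalised CPM (log axis) of the 9 copine genes in each vehicle library of the 5 regions, with females as circles, males as triangles and lines at the region means. Cpne1 and Cpne3 form flat rows, Cpne5 drops to a mean of 23.3 CPM in the VTA, and Cpne9 sits high in the PFC and, with a wide scatter, in the VTA.

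Cpne9 was a gene of the PFC and the VTA. Its vehicle CPM was lowest 47.89, median 54.49 and highest 69.76 in the PFC, and lowest 16.21, median 29.92 and highest 163.3 in the VTA. The range was 1.97 to 13.07 in the DMS, 4.297 to 9.041 in the Amy and 0.6321 to 6.426 in the NAc. Every PFC and VTA library was thus above every DMS, Amy and NAc library, and the NAc was lowest. Means were 56.2 ± 6.452 CPM in the PFC, 51.29 ± 45.83 in the VTA, 6.268 ± 3.178 in the DMS, 5.583 ± 1.23 in the Amy and 2.262 ± 1.541 in the NAc (± SD). The neighbours PFC and VTA did not differ beyond their spread (log2 difference 0.23, 95% interval -0.282 to 0.748, edgeR quasi-likelihood test with Benjamini-Hochberg adjusted p = 0.419). The VTA library at 163.3 CPM, FTL_371, was also the shallowest of all libraries, at 3090978 counts. With single male VTA vehicle libraries left out, the number of members called between PFC and VTA ran from 6 to 8. The VTA exceeded the DMS by 2.91 in log2 units. The DMS and the Amy differed by 0.19 (interval -0.415 to 0.796), and the NAc fell below the Amy by 1.36. Differences of Cpne9 that involve the DMS or the Amy hold female vehicle libraries by which it had been picked, so they are given with no test.

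Cpne5 marked the striatum. Its mean was 301.9 ± 23.59 CPM in the DMS and 256.8 ± 22.24 in the NAc, against 127.5 ± 13.61 in the Amy, 107.3 ± 8.473 in the PFC and 23.3 ± 4.775 in the VTA (± SD). The lowest DMS library (246.7 CPM) and the lowest NAc library (205.2 CPM) were above every library of the other 3 regions. The DMS exceeded the NAc by 0.24 in log2 units (edgeR adjusted p = 0.00087), below the fold threshold of 0.4 used for a call. The NAc exceeded the Amy by 1.04 (edgeR adjusted p = 4.49e-21), and the PFC exceeded the VTA by 2.22 (edgeR adjusted p = 9.31e-36).

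Cpne7 was lowest where Cpne5 was highest. It was high in the Amy (215.0 ± 15.59 CPM) and the VTA (197.9 ± 31.97) and lowest in the DMS (11.51 ± 6.987), with the NAc at 68.91 ± 7.798 and the PFC at 27.78 ± 4.714 (mean ± SD). The Amy and VTA levels were not separable (log2 difference 0.09, interval -0.182 to 0.352, edgeR adjusted p = 0.59). Each of the remaining steps of this order was larger than the spread, the smallest being the PFC over the DMS by 1.25 (edgeR adjusted p = 1.14e-10). The 2 striatal regions, close in Cpne5, stood apart in Cpne7, which was lower in the DMS than in the NAc by 2.57 in log2 units (edgeR adjusted p = 1.23e-21).

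Cpne6 and Cpne2 were both highest in the Amy. Mean CPM of Cpne6 was 272.1 in the Amy, 167.7 in the NAc, 135.0 in the PFC, 101.4 in the VTA and 63.58 in the DMS, and that of Cpne2 was 83.75 in the Amy, 60.62 in the NAc, 25.28 in the VTA, 20.72 in the DMS and 10.97 in the PFC. For Cpne6 every neighbouring pair of regions differed at an adjusted p under 0.05, although the step from the NAc to the PFC (0.33 on the log2 scale, edgeR adjusted p = 0.00229) stayed below the fold threshold. For Cpne2 the same held of the step from the VTA to the DMS (0.28, edgeR adjusted p = 0.00121).

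Cpne4 was the one member of which all 4 steps between neighbouring regions were called: 83.16 ± 10.61 CPM in the PFC, 58.43 ± 7.542 in the Amy, 37.1 ± 3.938 in the NAc, 25.68 ± 5.119 in the VTA and 19.39 ± 3.142 in the DMS (mean ± SD). The smallest step was 0.42 in log2 units (edgeR adjusted p = 2.47e-05), just above the fold threshold of 0.4. Cpne8 lay between 20.44 and 25.31 CPM in the 4 forebrain regions with no neighbouring pair separable (edgeR adjusted p from 0.177 to 0.225), and fell to 8.433 ± 0.7738 CPM in the VTA, 1.26 on the log2 scale below the Amy (edgeR adjusted p = 2.47e-19).

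No neighbouring pair of regions was separable for Cpne1, with region means from 36.49 to 42.72 CPM, and the ends of its order, the VTA and the PFC, differed by less than the fold threshold (0.23 in log2 units, edgeR adjusted p = 8.8e-07). For Cpne3, with means from 12.61 to 17.66 CPM, the largest step between neighbours was the VTA over the NAc by 0.16 (edgeR adjusted p = 0.042), and the VTA and the PFC at its ends differed by 0.48 (edgeR adjusted p = 4.05e-08). Between regions, 6 of 9 members were called for PFC against DMS (49.2% of all genes), 5 for PFC against NAc (45.2%), 5 for PFC against Amy (37.4%), 7 for PFC against VTA (55%) and 5 for DMS against NAc (30.7%). There were 5 for DMS against Amy (43%), 6 for DMS against VTA (57.6%), 6 for NAc against Amy (24.8%), 7 for NAc against VTA (52.1%) and 6 for Amy against VTA (43.4%). Between 5 and 7 of the 9 members were thus called in each pair of regions, against 24.8% to 57.6% of all genes. Counts for pairs with the DMS or the Amy can include Cpne9, whose female vehicle libraries there had a part in picking it. PFC and DMS libraries were counted in one table and the rest in another, so that pairs across them include any difference between tables, and libraries of a shared mouse were treated as separate.

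Levels can be compared between members only per length. Per kilobase of exon, the family summed to 167.4 CPM in the Amy, 114.5 in the NAc, 96.16 in the VTA, 85.67 in the PFC and 66.13 in the DMS. Cpne6 took the largest share in the PFC (37.01%), the NAc (34.38%) and the Amy (38.19%), whereas Cpne5 led in the DMS (33.65%) and Cpne7 in the VTA (39.07%). Cpne9 made up 8.331% of the family in the PFC, 6.774% in the VTA, 1.204% in the DMS, 0.4236% in the Amy and 0.2508% in the NAc.

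The next question was which copines differed between THC and vehicle. Outside the comparisons that had picked Cpne9, no member passed the thresholds for a call (FDR under 0.05, log2 fold change of 0.4 or more in either direction), and the same was true of all genes in those 8 comparisons (0% called in each). At an unadjusted p under 0.05, 3 of the 9 members stood out in the male NAc (16.7% of all genes) and 1 in the male PFC (4.07%). There were 0 in the female PFC (5.84%), the male DMS (1.93%), the female NAc (4.61%), the male Amy (1.84%), the female VTA (9.02%) and the male VTA (5.92%). DESeq2 also called 0 members in each of these 8, where its share of all genes was not counted. P-values measure the spread between libraries of separate mice within a region.

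**Figure D2:**
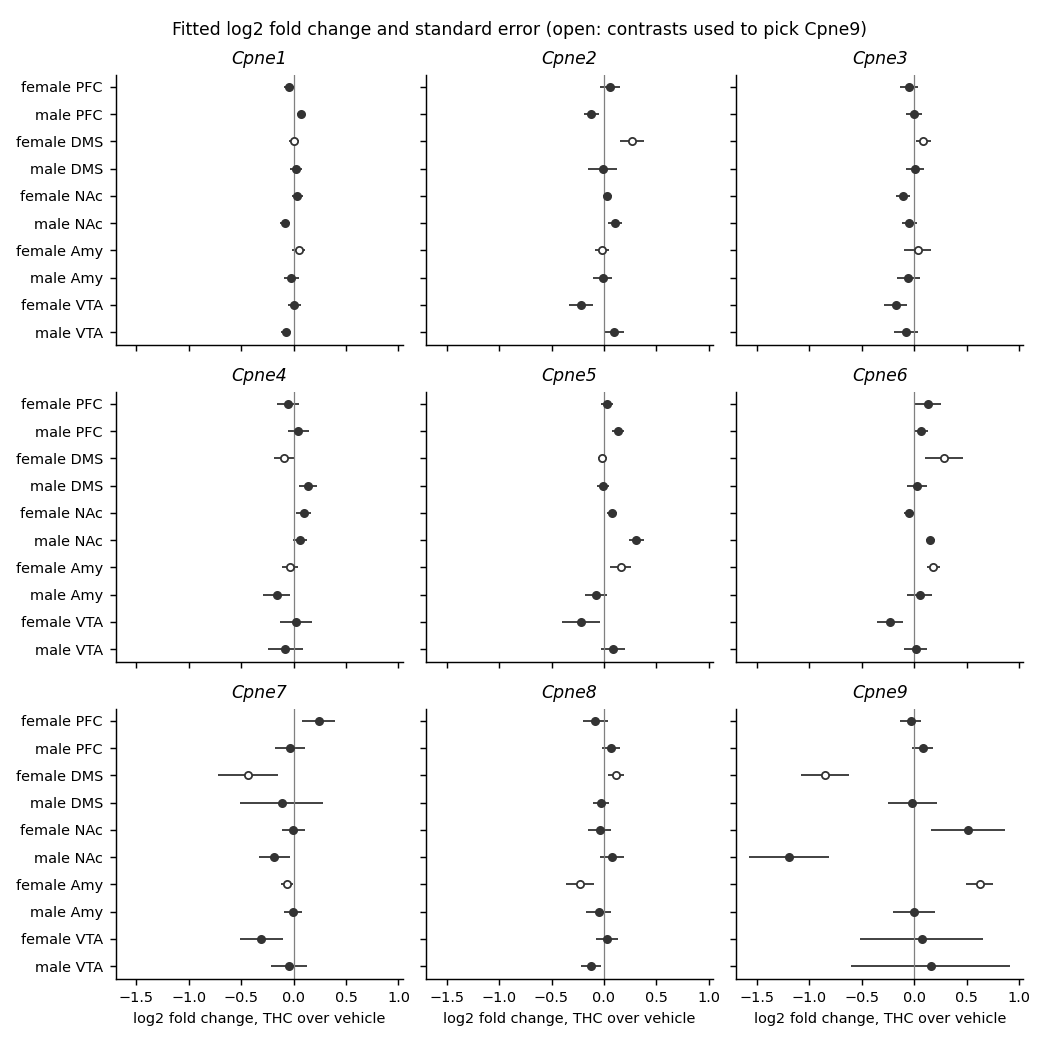
Log2 fold change (THC over vehicle) with its SE for each copine gene in the 10 region and sex comparisons, open symbols marking the 2 comparisons by which Cpne9 had been picked. Cpne1 stays between -0.08 and 0.07 throughout, and Cpne9 spans -1.19 in the male NAc to 0.63 in the female Amy.

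In the male NAc, Cpne5 was higher and Cpne9 lower after THC at an unadjusted p, and neither passed the adjustment. Cpne5 was lowest 205.2, median 257.5 and highest 271.8 CPM in vehicle libraries, and lowest 275.3, median 307.4 and highest 349.001 CPM in THC libraries. The groups did not overlap, which held for 1 of 9 members and 0.86% of all genes in this comparison. The log2 fold change was 0.31 (SE 0.072, edgeR unadjusted p = 0.000628, adjusted p = 0.21). Leaving out each library in turn gave 0.26 to 0.34.

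Cpne9 was low throughout the male NAc, 1.773 to 6.426 CPM with a median of 2.446 in vehicle libraries and 0.6258 to 2.523 CPM with a median of 1.212 in THC libraries, and 5 of 6 THC libraries were below all vehicle libraries. These levels rest on 35 to 121 counts in vehicle and 15 to 64 in THC libraries. The log2 fold change was -1.19 (SE 0.3811, edgeR unadjusted p = 0.00769, adjusted p = 0.21), and -0.83 without FTL_325, the vehicle library at 6.426 CPM. Cpne6 was 147.7 to 178.4 CPM (median 162.9) in vehicle and 172.7 to 190.7 CPM (median 178.6) in THC libraries, a log2 fold change of 0.15 (SE 0.046, edgeR unadjusted p = 0.00406, adjusted p = 0.21).

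**Figure D3:**
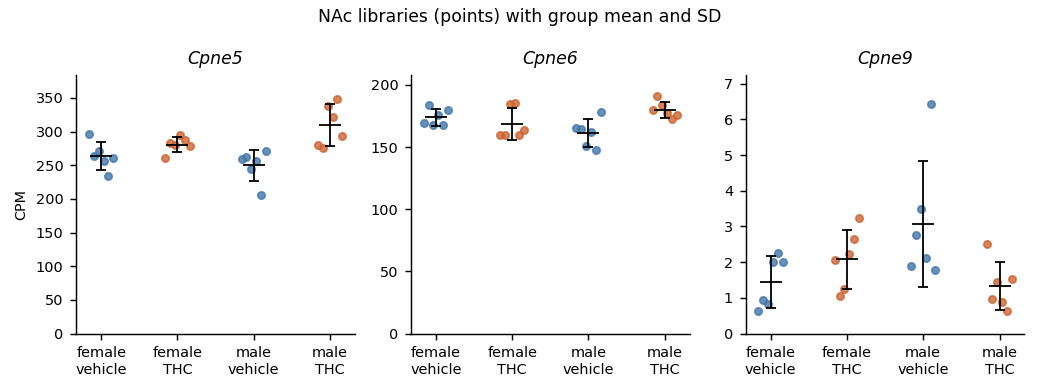
CPM of Cpne5, Cpne6 and Cpne9 in the NAc, a point per library with the mean and SD of each group of 6. For Cpne5 the male THC libraries (275.3 to 349.001 CPM) lie above the male vehicle libraries (205.2 to 271.8 CPM), while for Cpne9 1 vehicle library at 6.426 CPM lies far above the others.

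Striatal marker genes moved with these values in the male NAc. All 14 markers of medium spiny neurons (the projection neurons of the striatum) were above 0 in log2 fold change. At an unadjusted p under 0.05 there were 13 of them (16.7% of all genes), and 0 were called (0% of all genes). Their median was 0.35 where that of all genes was -0.000547. Their summed level was 3768 to 5634 CPM in vehicle and 4969 to 7603 CPM in THC libraries. Across the 24 NAc libraries, after the mean of each group was subtracted, log2 CPM of Cpne5 went with this sum at Pearson r = 0.89, a description over libraries that share punches and depth and that was chosen after the values were seen. The list of hypothalamus and medial amygdala summed to 41.88 to 105.2 CPM in vehicle and 39.35 to 74.15 CPM in THC libraries, and Cpne9 went with it at r = 0.72 and with the medium spiny sum at -0.57. The part of either marker list in the copine values was not tested.

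The female NAc did not show the same values. Cpne9 was 0.6321 to 2.261 CPM (median 1.469) in vehicle and 1.064 to 3.224 CPM (median 2.153) in THC libraries, a log2 fold change of 0.51 (SE 0.3497, edgeR unadjusted p = 0.163, adjusted p = 0.991). Cpne5 differed by 0.08 and Cpne6 by -0.05. The difference between the sexes in the response to THC (male minus female) was -1.71 for Cpne9 (SE 0.5516, interval -2.791 to -0.628), 0.23 for Cpne5 (SE 0.0897) and 0.21 for Cpne6 (SE 0.0668). Their edgeR unadjusted p-values were 0.00501, 0.0169 and 0.00459, and the adjusted ones 0.384, 0.398 and 0.384, so that none was called (0 of 9 members, 0% of all genes). With both sexes in 1 fit and sex as a covariate, Cpne5 in the NAc had a THC log2 fold change of 0.19 (edgeR unadjusted p = 0.00057, adjusted p = 0.325).

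Cpne9 in the female DMS was lowest 5.403, median 8.126 and highest 13.07 CPM in vehicle libraries and lowest 3.286, median 4.557 and highest 6.616 CPM in THC libraries. In 5 of 6 THC libraries it was below all vehicle libraries. The log2 fold change was -0.85 (SE 0.2262), and -0.97 to -0.68 with each library left out in turn. These are the values that picked the gene and carry no test. As counts from which nothing is read, 0 of 9 members passed the call thresholds (0.0127% of all genes) and 0 of 9 had groups that did not overlap (0.551%). The vehicle library at 13.07 CPM was FTL_285, which also had the highest summed cortical and basolateral markers of the female DMS, at 1136 CPM. Over the DMS libraries, with group means subtracted, Cpne9 stood at r = 0.6 with the interneuron sum and 0.52 with the cortical and basolateral sum. With microglia it stood at 0.4 and with the medium spiny sum at 0.38. The part of these markers in Cpne9 was not tested.

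Of the other members in the female DMS, Cpne7 had a log2 fold change of -0.43 (SE 0.2881), which was -0.04 without the vehicle library FTL_285, at 22.02 CPM where the other 5 were at 6.858 to 9.39 CPM. The summed medium spiny markers were at 9770 CPM in that library, the lowest of the 12 female DMS libraries, whose group ranges were 9770 to 12780 CPM in vehicle and 10840 to 12120 CPM in THC libraries. Its cortical and basolateral sum was the highest, at 1136 CPM (723.9 to 1136 CPM in vehicle and 691.6 to 798.7 CPM in THC libraries). In the male DMS, the library of highest Cpne7, FTL_301 at 29.02 CPM, had a low medium spiny sum too (7893 CPM) but the lowest cortical sum of its group (615.3 CPM). Over the 24 DMS libraries, with group means subtracted, Cpne7 stood at r = -0.87 with the medium spiny sum, -0.78 with microglia, 0.76 with astrocytes and 0.25 with the cortical list. The part of these markers was not tested.

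For Cpne2 in the female DMS the log2 fold change was 0.27 (SE 0.1114), and 0.17 without FTL_296, the THC library at 30.14 CPM. For Cpne6 it was 0.28 (SE 0.1805), with THC libraries at 57.62 to 74.62 CPM inside the vehicle range of 36.11 to 79.86 CPM. The remaining members were at 0.01 for Cpne1, 0.09 for Cpne3, -0.09 for Cpne4, -0.01 for Cpne5 and 0.11 for Cpne8.

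In the male DMS, Cpne9 was 1.97 to 6.1 CPM (median 4.233) in vehicle and 2.896 to 4.994 CPM (median 4.131) in THC libraries, so the THC range lay inside the vehicle range. The log2 fold change was -0.02 (SE 0.231, edgeR unadjusted p = 0.945, adjusted p = 1.0). The difference between the sexes in the response was 0.83 (SE 0.3437), a description since it holds the female libraries.

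Cpne9 in the female Amy was lowest 4.297, median 5.433 and highest 6.058 CPM in vehicle libraries and lowest 6.863, median 8.024 and highest 9.971 CPM in THC libraries. Every THC library was above every vehicle library. Groups did not overlap, in either direction, for 1 of 9 members and 4.15% of all genes. The log2 fold change was 0.63 (SE 0.1284), or 0.67 without FTL_344, whose sex genes went against its label and whose Cpne9 was at 6.983 CPM. With each library left out in turn it stayed between 0.56 and 0.67. As a count from which nothing is read, 1 of 9 members, Cpne9, passed the call thresholds (1.57% of all genes). Cpne6 was 253.7 to 315.4 CPM (median 271.6) in vehicle and 290.6 to 338.1 CPM (median 322.6) in THC libraries, a log2 fold change of 0.18 (SE 0.0635), or 0.16 without FTL_344. The other members were at 0.16 for Cpne5 (SE 0.0993), -0.23 for Cpne8 (SE 0.1307), 0.05 for Cpne1, -0.02 for Cpne2, 0.03 for Cpne3, -0.04 for Cpne4 and -0.07 for Cpne7.

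Several marker lists also differed between THC and vehicle libraries in the female Amy. Of the 14 markers of cortical and basolateral projection neurons, 6 were called higher (Bcl11b, Lmo4, Neurod6, Rspo2, Slc17a7 and Tbr1), as were 1.09% of all genes. All 14 were above 0 and none was at 0 counts, with a summed level of 1042 to 1456 CPM in vehicle and 1500 to 1970 CPM in THC libraries. Of the 14 medium spiny markers 1 was called higher (Foxp1), the sum being 781.9 to 1532 CPM and 1224 to 1920 CPM. Of the 12 markers of hypothalamus and medial amygdala, 9 could be tested and 2 were called lower (Calcr and Lhx6), as were 0.476% of all genes. Lhx6 is also on the interneuron list. Hmx2 was at 0, and the sums were 68.37 to 116.4 CPM in vehicle and 46.2 to 69.93 CPM in THC libraries. FTL_344 held 1816 CPM of the first list, 1224 of the second, the lowest of its group, and 69.93 of the third, the highest of its group. Across the 24 Amy libraries, after group means were subtracted, Cpne9 stood at r = 0.53 with the cortical and basolateral sum, 0.62 with the medium spiny sum and -0.66 with that of hypothalamus and medial amygdala. For Cpne6 the values were 0.78, -0.62 and 0.34. Other lists stood as far from 0 for Cpne6: dopaminergic neurons at -0.8, interneurons at 0.67, oligodendrocytes at -0.65, microglia at -0.6, astrocytes at -0.54 and endothelium at -0.36. The part of these markers in the copine values was not tested.

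In the male Amy, Cpne9 was 4.521 to 9.041 CPM (median 5.417) in vehicle and 3.42 to 7.345 CPM (median 6.324) in THC libraries. The log2 fold change was 0.00 (SE 0.2019, edgeR unadjusted p = 0.997, adjusted p = 1.0), and -0.07 without FTL_356. The groups overlapped. The difference between the sexes in the response was -0.62 (SE 0.2457), or -0.74 without FTL_344 and FTL_356, again a description, and 0 of 9 members were called in it with and without them (0.0059% of all genes).

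In the PFC, where Cpne9 was high and even, the ranges of THC and vehicle libraries overlapped in both sexes. Female vehicle libraries were at 47.89 to 69.76 CPM (median 54.49) and THC libraries at 48.35 to 64.08 CPM (median 54.7), a log2 fold change of -0.03 (SE 0.1001, edgeR unadjusted p = 0.75, adjusted p = 0.983). Male vehicle libraries were at 50.79 to 62.22 CPM (median 55.53) and THC libraries at 49.34 to 74.76 CPM (median 59.4), a log2 fold change of 0.08 (SE 0.098, edgeR unadjusted p = 0.424, adjusted p = 1.0). Cpne5 in the male PFC was 98.71 to 112.7 CPM in vehicle and 101.1 to 137.6 CPM in THC libraries (log2 fold change 0.13, SE 0.0581, edgeR unadjusted p = 0.0373, adjusted p = 1.0).

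**Figure D4:**
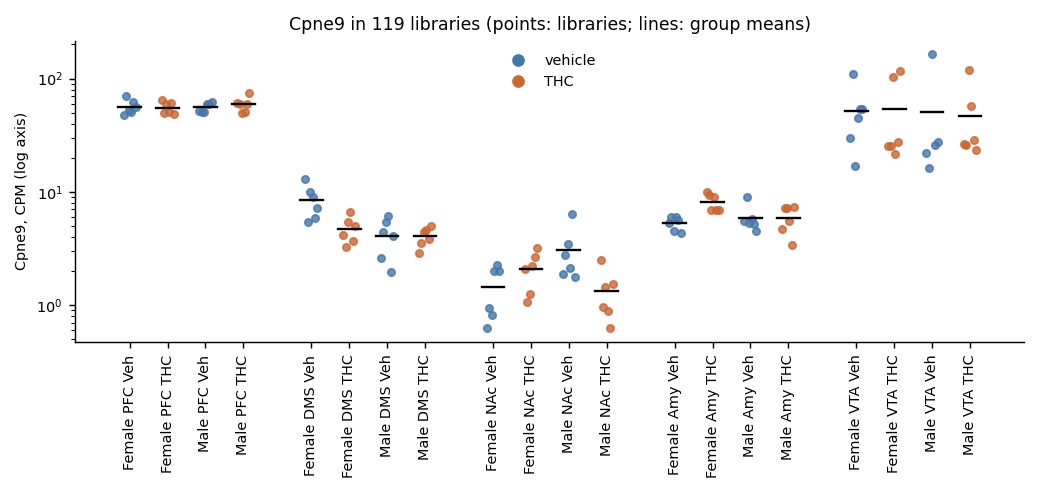
Cpne9 CPM (log axis) in every library of the 20 region, sex and treatment groups. The female Amy THC libraries (6.863 to 9.971 CPM) lie above the female Amy vehicle libraries (4.297 to 6.058 CPM), and the VTA groups each spread from near 20 to over 100 CPM.

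In the VTA the spread between libraries of a group was larger than any difference between groups. Female vehicle libraries had Cpne9 at 16.94 to 110.2 CPM (median 49.22) and THC libraries at 21.48 to 117.0 CPM (median 26.61), a log2 fold change of 0.07 (SE 0.5852, edgeR unadjusted p = 0.907, adjusted p = 0.976). The 5 male vehicle libraries were at 16.21, 21.86, 26.1, 27.42 and 163.3 CPM, and male THC libraries at 23.54 to 118.5 CPM (median 27.73). The mean was lower in THC (46.73 CPM) than in vehicle libraries (50.97 CPM) while the fitted difference was above 0. That log2 fold change was 0.16 (SE 0.7581, edgeR unadjusted p = 0.839, adjusted p = 1.0), -0.13 with DESeq2, 1.04 without the vehicle library FTL_371 and -0.37 without the THC library FTL_376.

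Of the 23 VTA libraries, 14 had Cpne9 under 30 CPM, 4 between 40 and 60 CPM and 5 over 100 CPM. The 5 highest came from all 4 groups. FTL_358 (female vehicle) had 110.2 CPM, FTL_365 and FTL_368 (female THC) 102.8 and 117.0, FTL_371 (male vehicle) 163.3 and FTL_376 (male THC) 118.5. Cpne4 ran the other way, with a Pearson r of -0.88 between the log2 CPM of both genes over the 23 libraries and -0.82 without the 2 libraries farthest from the median of Cpne9. In FTL_371, the library of highest Cpne9, Cpne4 was at 17.31 CPM.

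Cpne9 in the VTA also went with Foxb1, a forkhead transcription factor of the developing hypothalamus and midbrain (r = 0.94, and 0.93 without the same 2 libraries), and with Grm2, a metabotropic glutamate receptor (0.95 and 0.93). With Th, which encodes the enzyme that makes the dopamine precursor, it stood at -0.5 (-0.33 without the 2 libraries). Cpne7 followed Th instead, at r = 0.98 (0.96 without the 2 libraries farthest from its own median), and Slc6a3 at 0.97 (0.95). In the library of lowest Cpne7, FTL_363 with 81.22 CPM, Th was also lowest, at 224.6 CPM. These pairs were chosen after the values were seen, the points share punches and depth, and the part of tissue composition in them was not tested. Of the marker lists, that of hypothalamus and medial amygdala went most closely with Cpne9 in the VTA (r = 0.9 with group means subtracted), and the medium spiny and dopaminergic sums ran against it (-0.78 and -0.58). The cortical and basolateral (0.58), astrocyte (0.56) and endothelial (0.48) sums also went with Cpne9. Those of oligodendrocytes (-0.53) and interneurons (-0.51) ran against it, and microglia stood at -0.07. The hypothalamus and medial amygdala sum was 16.9 to 51.2 CPM in female vehicle, 8.098 to 57.75 in female THC, 7.465 to 67.76 in male vehicle and 14.49 to 37.17 in male THC libraries, with its highest value in FTL_371. The summed dopaminergic markers ran from 3418 to 4954 CPM in female vehicle, 1611 to 4759 in female THC, 1961 to 5033 in male vehicle and 2961 to 4842 in male THC libraries.

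**Figure D5:**
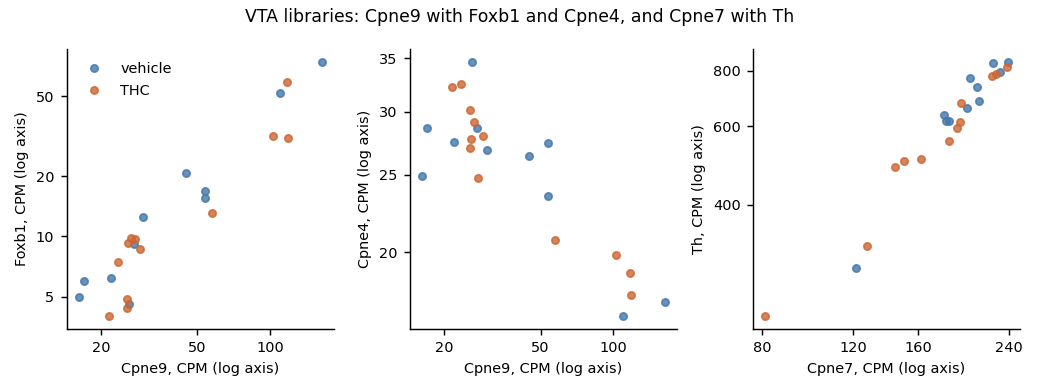
The 23 VTA libraries by Cpne9 and Foxb1, Cpne9 and Cpne4, and Cpne7 and Th, as CPM on log axes with vehicle and THC in 2 colours. Foxb1 climbs with Cpne9 while Cpne4 falls, Th climbs with Cpne7, and the libraries of both treatments lie along the same courses.

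Over the 8 tested comparisons of THC with vehicle, no difference of Cpne1, Cpne2, Cpne3, Cpne4, Cpne7 or Cpne8 reached an unadjusted p under 0.05. Their log2 fold changes ran from -0.08 to 0.07 for Cpne1, -0.22 to 0.1 for Cpne2, -0.18 to 0.01 for Cpne3, -0.16 to 0.14 for Cpne4 and -0.12 to 0.08 for Cpne8. Cpne7 ran from -0.31 to 0.24, with its lowest adjusted p at 0.545 (edgeR).

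Sex was compared with treatment as a covariate. In the DMS, the male minus female difference of Cpne9 was -0.62 in log2 units (SE 0.1919). Female vehicle libraries had a mean of 8.446 ± 2.891 CPM, female THC 4.681 ± 1.224, male vehicle 4.091 ± 1.578 and male THC 4.046 ± 0.7628 (± SD, n = 6 each). The female vehicle mean thus stood above those of the other 3 groups. Since the female libraries are those by which Cpne9 had been picked, this is a description with no test. As a count from which nothing is read, 1 of 9 members, Cpne9, passed the call thresholds (2.64% of all genes, 0.464% lower in males), and 0 of the 8 others did.

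Male minus female differences in the DMS were 0.36 for Cpne6 (SE 0.1048, edgeR adjusted p = 0.0308) and 0.19 for Cpne3 (SE 0.0559, edgeR adjusted p = 0.0323), both under the fold threshold. Cpne6 passed it without FTL_286, at 0.43 (edgeR adjusted p = 0.00911). Over all fits that left out 1 female vehicle library, Cpne6 ran from 0.31 to 0.43, with edgeR adjusted p up to 0.0548. In the same fits Cpne3 ran from 0.17 to 0.2, with edgeR adjusted p up to 0.0619. Cpne7 was at 0.47 (SE 0.2455, edgeR adjusted p = 0.221), and at 0.66 without FTL_285 (edgeR adjusted p = 0.0403). Its range in these fits was 0.43 to 0.66, with edgeR adjusted p up to 0.303. No male library was left out. Among them, FTL_301 had the highest Cpne7 (29.02 CPM) and Cpne6 (95.06 CPM) of the male vehicle group, so the ranges do not cover its part. The median of the summed medium spiny markers was lower in male than in female DMS libraries, at 10780 CPM in male vehicle and 10730 in male THC against 12320 in female vehicle and 11740 in female THC libraries. Within groups, Cpne6, Cpne3 and Cpne7 stood at r = -0.62, -0.65 and -0.87 with this sum, whose part in the sex differences was not tested. In the NAc, Cpne3 was at -0.10 (edgeR unadjusted p = 0.0473, adjusted p = 0.295) and Cpne7 at -0.21 (edgeR unadjusted p = 0.0371, adjusted p = 0.267). In the PFC, NAc and VTA 0 members were called (0.24%, 0.243% and 0.109% of all genes). In the Amy 0 members were called too (0.012% of all genes), also without FTL_344 and FTL_356. For Cpne9 nothing is read from the Amy count, since it holds the female libraries by which Cpne9 had been picked.

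Other genes with tandem C2 domains were followed as a list of 25, of which 20 to 22 could be tested, and 0 of them were called in each of the 10 comparisons of THC with vehicle, where 0% of all genes were called in 8, 0.0127% in the female DMS and 1.57% in the female Amy. Their median log2 fold change lay between -0.064 in the female DMS and 0.071 in the female Amy, where the medians of all genes were 0.000212 and -0.00567. In the female Amy the list's smallest p-values were those of Syt12, at 0.38 (SE 0.0655, edgeR adjusted p = 0.0134, under the fold threshold), and of the release sensor Syt7, at 0.38 (SE 0.1054). In the female DMS, Rph3a (rabphilin) was at -0.32 and Syt14 at -0.15. By sex, Syt10 was called higher in males in the DMS (0.43, edgeR adjusted p = 0.0457) and Sytl4 in the NAc (1.01, edgeR adjusted p = 0.0239).

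Of 7 genes whose products bind copines or act with them (Rac1, Ntrk2, Bdnf, Erbb2, Rack1, Ywhag and Akt1), 6 or 7 were tested and 0 were called in every comparison of THC with vehicle. Bdnf, the neurotrophin that acts on TrkB, had the smallest p of both lists in the male NAc, at -1.10 (SE 0.2618, edgeR unadjusted p = 0.000678, adjusted p = 0.21), followed by Syt6 at 0.31 (SE 0.0763, edgeR unadjusted p = 0.000931, adjusted p = 0.21). Its difference between the sexes in the NAc was -1.60 (SE 0.4928, edgeR unadjusted p = 0.00307, adjusted p = 0.384).

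The genes whose levels were most like those of Cpne9 over the 119 libraries were, by Spearman's rho, Cav2 (0.916), Cdk16 (0.912), Npnt (0.911), Rap1gds1 (0.91) and Rab7 (0.904). This measure mostly follows the regions. After the mean of each region, sex and treatment group was subtracted, the most alike were Foxb1 (Pearson r = 0.75), Mmgt2 (0.71), Rasgrp1 (0.699), Kcnj9 (0.699) and Grm2 (0.69). None of the 5 was among the former 5. Within single regions, a measure added after the values were seen, the top gene by Pearson r changed from one region to the next. With group means left in, it was Ptgfrn in the PFC (0.87), Ece1 in the DMS (0.915), Nefh in the NAc (0.941), Grasp in the Amy (0.945) and Grm2 in the VTA (0.948). Those of the DMS and the Amy then hold the differences by which Cpne9 had been picked. With group means subtracted, the top genes in the same order of regions were Ptgfrn (0.887), Cdh13 (0.858), Kcnj16 (0.924), Grasp (0.919) and Anxa11 (0.966).

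For the other members, the most similar gene by rho was Arhgap33 for Cpne5 (0.97), Dpp10 for Cpne4 (0.96), Galnt16 for Cpne6 (0.951), Hap1 for Cpne2 (0.95), Scml4 for Cpne7 (0.945), Cyp4f15 for Cpne8 (0.806), Trim56 for Cpne3 (0.748) and Amot for Cpne1 (0.703). The members of even level had the weakest likeness. Among the copines themselves, Cpne2 and Cpne6 (0.66), Cpne2 and Cpne7 (0.66), Cpne5 and Cpne8 (0.66) and Cpne4 and Cpne6 (0.65) ran together over the libraries, while Cpne5 and Cpne9 ran apart (-0.69). With group means removed, those of Cpne4 and Cpne9 went to -0.42. These points share libraries, regions and depth, and the values are descriptions.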

How the data were processed

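RNA of 119 single-mouse region punches was made into polyadenylated, strand-specific libraries and sequenced in pairs of reads. The authors trimmed reads with cutadapt 2.9, aligned them to mm10 with STAR 2.7.3a and counted genes with RSEM 1.3.1, as their processing notes name the tools. The deposited values are RSEM expected counts without normalisation, in a table of PFC and DMS libraries and a table of the other 3 regions. Conditions were taken from the labels.

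Expected counts were rounded and fitted with edgeR 4.0.16 in R 4.3.3 (filter on low counts with a minimum of 10, TMM, robust quasi-likelihood F test). THC was compared with vehicle within each region and sex, sex and its interaction with THC within a region, and regions among vehicle libraries with sex as a covariate. The Benjamini-Hochberg adjustment ran over all genes tested. Calls needed an adjusted p (FDR) under 0.05 together with a log2 fold change of 0.4 or more in either direction. All 9 members passed the filter in every comparison. Log2 CPM used a prior count of 2. Alternatives included DESeq2 1.42.0, other size factors, no filter and single libraries left out in some of the comparisons. The fits were tested on simulated data.

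Members, gene lists and tests were chosen with earlier results of these data known. Cpne9 was given in every comparison of THC with vehicle, another member on its own where called, at an unadjusted p under 0.05 or at a log2 fold change of that size, and otherwise by range; the 5 genes most like Cpne9, the 1 most like each other member, and of the lists the genes called and the 2 of smallest p were named. Marker lists of 9 cell or tissue types came from general knowledge. Protein sequences were not used here.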

Additional observations from a re-analysis of the deposited data

Results flagged for a closer look

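Of 180 sets of a member and a group, 19 held a library whose gap to its nearest neighbour passed the Dixon critical value at 95%, where chance marks about 1 in 20. The values are CPM of the library set against the range of the rest of its group.

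For Cpne9, FTL_325 of the male NAc vehicle group was at 6.426 against 1.773 to 3.499 and FTL_346 of the male Amy vehicle group at 9.041 against 4.521 to 5.705. In the VTA, FTL_371 (male vehicle) was at 163.3 against 16.21 to 27.42 and FTL_376 (male THC) at 118.5 against 23.54 to 57.22. For Cpne7, FTL_281 (male PFC THC) was at 37.55 against 21.58 to 27.24, FTL_285 (female DMS vehicle) at 22.02 against 6.858 to 9.39, FTL_301 (male DMS vehicle) at 29.02 against 7.398 to 14.11 and FTL_310 (female NAc vehicle) at 80.17 against 67.4 to 72.06.

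For Cpne2, FTL_272 (female PFC THC) was at 14.88 against 9.73 to 11.05, FTL_279 (male PFC THC) at 12.66 against 9.428 to 10.45 and FTL_296 (female DMS THC) at 30.14 against 19.11 to 22.59. Cpne2 was also apart in FTL_328 (male NAc THC, 69.33 against 63.26 to 64.23), FTL_347 (male Amy vehicle, 102.3 against 73.33 to 81.64) and FTL_352 (male Amy THC, 62.94 against 81.93 to 89.18). FTL_352 was low in Cpne4 as well, at 33.81 against 51.04 to 60.51. Cpne6 was at 213.3 in FTL_350 (male Amy vehicle) against 264.8 to 294.3 and at 130.7 in FTL_371 against 78.57 to 92.71. Cpne3 was at 13.97 in FTL_281 against 11.14 to 12.19, and Cpne1 at 38.9 in FTL_321 (male NAc vehicle) against 41.77 to 43.44.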

How the results depend on the processing

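No paired analysis was possible because each library carries its own number, which no other library shares, and the labels do not tie libraries to mice. Under DESeq2, DESeq2 size factors in edgeR, no filter on low counts, all 4 groups of a region in 1 fit, females or males alone for the region pairs, and fits without FTL_344 and FTL_356, the number of members called stayed within 1.5 times the reported count except in 3 cases: DESeq2 called 1 member in the female DMS (0 reported), no filter called 0 in males against females of the DMS (1 reported, Cpne9 then at -0.63), and all 4 groups in 1 fit called 0 in the female Amy (1 reported). The causes were not tested, and shares of all genes were not counted under these alternatives or with single libraries left out. For the female DMS, the female Amy and the sexes of the DMS, nothing is read from such counts, since their female libraries had picked Cpne9. Single libraries were left out in the female DMS, Amy and male DMS, NAc, Amy and VTA comparisons of THC, for the 6 female vehicle libraries in the sexes of the DMS, and for the 5 male VTA vehicle libraries in the other VTA fits and the region pairs. Members called then ran from 0 to 1 in the female Amy (0 without any one of FTL_333, FTL_335, FTL_339, FTL_340 or FTL_342), from 0 to 2 in the sexes of the DMS (0 without FTL_287, FTL_288 or FTL_290), from 6 to 8 for PFC against VTA and from 5 to 6 for DMS against VTA, and did not move in the rest of those fits. Cpne9 after THC changed sign where its change was near 0: -0.15 to 0.14 in the male DMS and -0.07 to 0.18 in the male Amy with 1 library left out (-0.01 there with no filter), and -0.37 to 1.04 in the male VTA (-0.13 with DESeq2). In the male NAc, leaving out 1 library gave -1.48 to -0.83 for Cpne9 and 0.13 to 0.18 for Cpne6, with edgeR adjusted p from 0.104 to 0.413 and 0 members called. Among levels, that of Cpne1 in the PFC moved from 36.49 to 33.73 CPM over plain library totals. The leave-one-out fits of the male NAc and of the sexes in the DMS were chosen after seeing the data. Counting error bears most on Cpne9, whose low level in the NAc gave 15 to 64 counts in the male THC libraries.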
